A study of Mus musculus with 16 samples.

Results

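The enzymes described here are those of the pentose phosphate pathway and 3 further enzymes that make or pass on NADPH, in mouse podocytes without *Tsc2*. The list names 10 genes. The oxidative arm is given by *G6pdx*, *Pgls* and *Pgd*, the non-oxidative arm by *Taldo1*, *Tkt*, *Rpia* and *Rpe*, and the other NADPH sources by *Me1*, *Idh1* and *Nnt*. Members were chosen by function, with earlier results of these data known. Their probes were the non-control probes whose transcript identifier belongs to these genes. This gave 15 probes of 9 genes, out of 56605 probes and 22911 genes with a probe on the array, and *Nnt* was matched to no probe. All 15 probes entered the test, which took a probe if a whole group of arrays measured it above background, and 14 of them were above it throughout the 16 arrays.

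The pentose phosphate pathway leaves glycolysis at glucose 6-phosphate. Its oxidative arm reduces NADP to NADPH and yields ribulose 5-phosphate, whereas its reversible non-oxidative arm exchanges sugar phosphates with glycolysis and supplies ribose for nucleotides. NADPH is the reductant for glutathione and thioredoxin, for fatty acid and sterol synthesis and for the NADPH oxidases, of which NOX4 is present in podocytes.

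Podocytes, the epithelial cells that cover the glomerular capillaries, were grown out of isolated glomeruli of male Jcl:ICR mice, and their RNA was measured on 16 one-colour Agilent arrays, 4 in each of 4 groups. *Tsc2*Δ*podocyte* mice carry *Tsc2* flox/flox alleles and a Cre transgene expressed in podocytes, and their controls carry *Tsc2* flox/flox without Cre, so that the Cre transgene and the deletion cannot be told apart. TSC2 restrains the kinase complex mTORC1, which rapamycin inhibits. Both genotypes gave untreated samples at 4 weeks of age and further samples at 5 weeks of age, 1 week after rapamycin. Rapamycin was given to the mice by intraperitoneal injection. The question was how the loss of *Tsc2* changed these cells and what rapamycin altered.

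*Tsc2* itself was lower in *Tsc2*Δ*podocyte* samples, without overlap with the controls of the same treatment, with a log2 fold change of -1.35 without and -0.99 with rapamycin for its brighter probe. The arrays had between 28696 and 32918 spots well above background, and no spot was saturated. All 10 podocyte markers had a probe above background in every group, and of 7 tubule markers *Slc12a3*, *Slc34a1* and *Umod* were above background on no array, *Slc12a1* on 2, and *Lrp2*, *Aqp2* and *Cdh16* on all 16. The untreated groups filled 1 slide and the treated groups another, with the genotypes in different rows. Slide, age and rapamycin therefore cannot be told apart, nor can slide row and genotype. Whether the samples of a group were separate mice is not stated, and the p-values cover the spread among these samples alone, part or all of which may be technical.

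Without treatment, 6 of the 9 measured genes rose in *Tsc2*Δ*podocyte* podocytes, none fell and 3 did not pass the test. Both dehydrogenases of the oxidative arm rose, *G6pdx* 2.07-fold and *Pgd* 1.80-fold, as did the transaldolase *Taldo1* (1.62-fold), the transketolase *Tkt* (1.38-fold), the malic enzyme *Me1* (1.74-fold) and the isocitrate dehydrogenase *Idh1* (1.81-fold). *Pgls*, *Rpia* and *Rpe* did not pass. A gene is counted here where its brightest probe had an adjusted p under 0.05 in limma, and 9.59% of all 27579 tested probes were higher and 8.42% lower by that rule. The median log2 fold change of the 9 genes was 0.69, against -0.010 over all 14094 tested genes. Of the 6 genes, 5 also reached the 1.5-fold difference that the study used, as 5.95% of all tested probes did in the higher direction, with *Tkt* the exception. In all 6 the 4 *Tsc2*Δ*podocyte* arrays lay above the 4 *Tsc2* flox/flox arrays, as they did for 12.3% of all probes. Values are log2 signals relative to the 75th percentile of each array, so that levels of different probes are not set against each other.

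**Figure D1:**
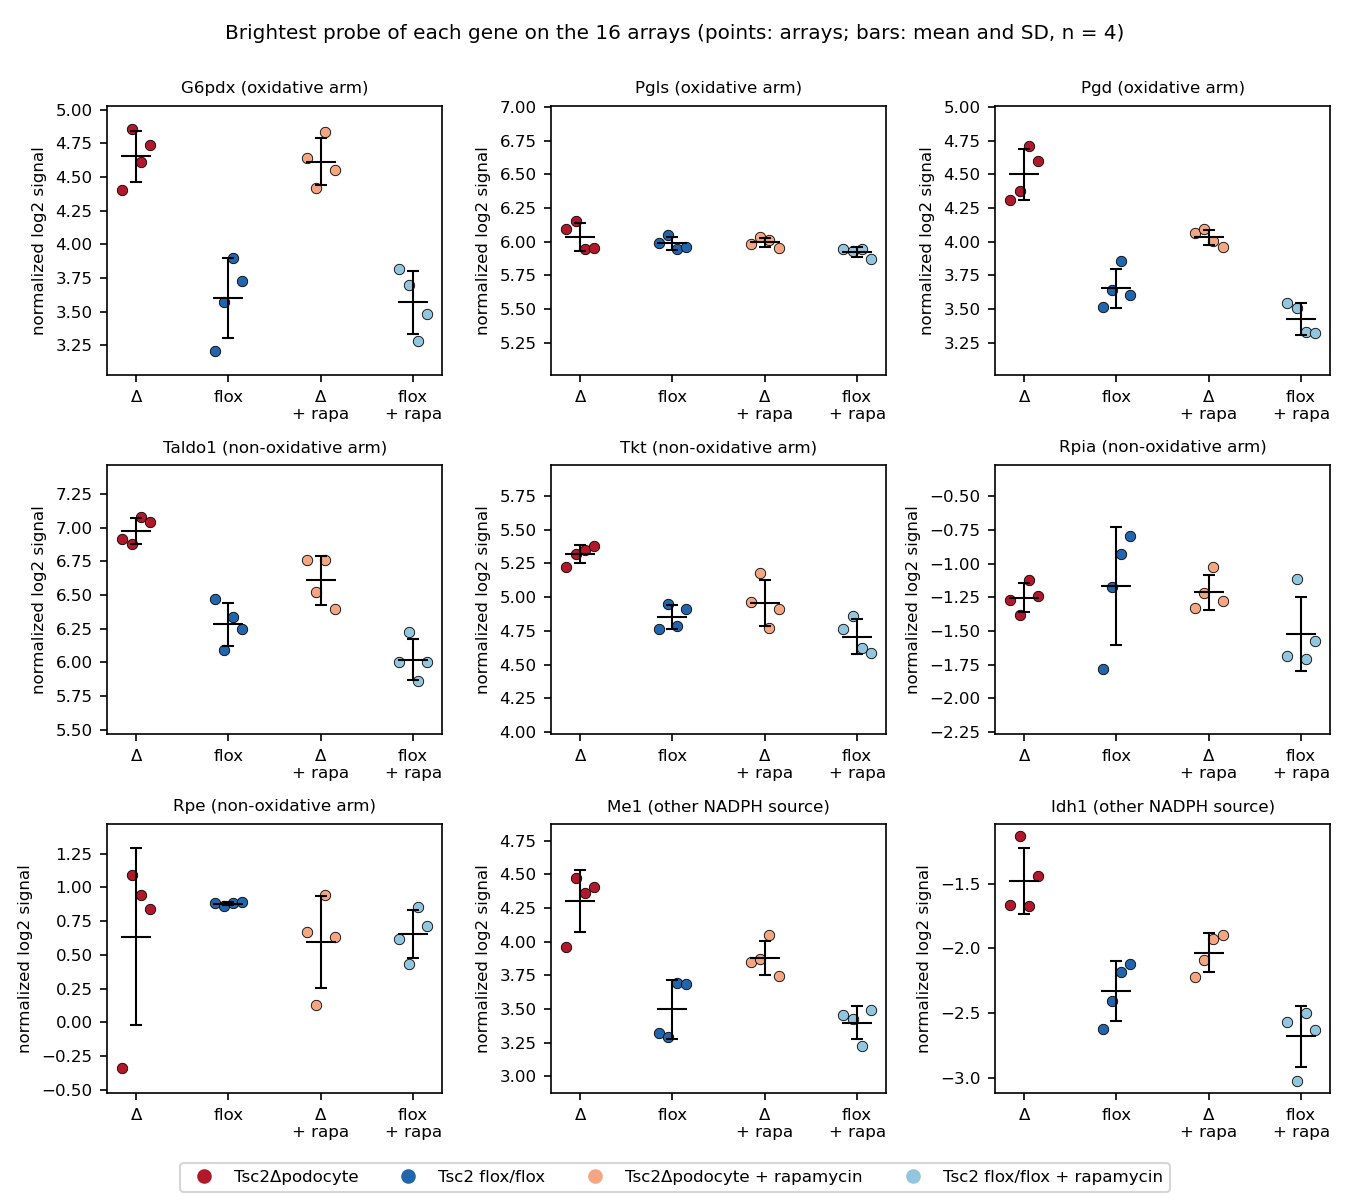
Normalized log2 signal (vertical axis) of the brightest probe of each of the 9 measured genes, by group (Δ, *Tsc2*Δ*podocyte*; flox, *Tsc2* flox/flox; rapa, rapamycin). Points are arrays, and bars give the mean and SD of 4 arrays. The untreated groups are apart for *G6pdx*, *Pgd*, *Taldo1*, *Tkt*, *Me1* and *Idh1* and overlap for *Pgls*, *Rpia* and *Rpe*.

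*G6pdx* encodes glucose-6-phosphate dehydrogenase, the entry enzyme of the pathway, which makes its first NADPH. Its signal was 4.41, 4.85, 4.61 and 4.74 in *Tsc2*Δ*podocyte* podocytes (4.65 ± 0.19, SD, n = 4) and 3.21, 3.57, 3.90 and 3.73 in *Tsc2* flox/flox podocytes (3.60 ± 0.29). The groups did not overlap. The log2 fold change of 1.05 (standard error, SE, 0.16, adjusted p = 0.000634) was the largest among the 15 probes. The array also holds a probe for *G6pd2*, an intronless copy nearly identical to *G6pdx*, and how far each probe reads the other transcript is uncertain.

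*Pgd* encodes 6-phosphogluconate dehydrogenase, which makes the second NADPH of the oxidative arm. Its arrays gave 4.31, 4.38, 4.71 and 4.60 in *Tsc2*Δ*podocyte* and 3.52, 3.64, 3.85 and 3.61 in *Tsc2* flox/flox podocytes. The lowest *Tsc2*Δ*podocyte* array was above the highest control array, and the log2 fold change was 0.85 (SE 0.10, adjusted p = 0.000179). *Pgls*, the lactonase that acts between these dehydrogenases, was at 6.09, 6.15, 5.94 and 5.95 against 5.99, 6.05, 5.94 and 5.96, with overlapping groups. Its log2 fold change was 0.048, and the 95% interval of -0.096 to 0.19 leaves out a rise as large as that of *G6pdx* or *Pgd*. The other *Pgls* probe gave -0.058 (adjusted p = 0.652). Quantile normalization turned the sign of the brighter probe, at -0.065.

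In the non-oxidative arm, *Taldo1*, which moves a dihydroxyacetone unit between sugar phosphates, was at 6.92, 6.88, 7.08 and 7.04 in *Tsc2*Δ*podocyte* and 6.47, 6.09, 6.33 and 6.25 in *Tsc2* flox/flox podocytes. Its log2 fold change of 0.69 (SE 0.11, adjusted p = 0.000982) was close to that of its other probe, at 0.74 (adjusted p = 0.00226), and neither probe had overlapping groups. *Tkt*, which moves ketol units and needs thiamine diphosphate, was at 5.23, 5.32, 5.35 and 5.38 against 4.76, 4.95, 4.78 and 4.91. The groups were apart, at a smaller log2 fold change of 0.47 (SE 0.094, adjusted p = 0.00415). With the endothelial and macrophage marker means as covariates, *Tkt* no longer passed (0.43, adjusted p = 0.0642), while the other 5 genes did.

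The isomerase *Rpia* and the epimerase *Rpe*, which interconvert the pentose 5-phosphates, gave no such difference. *Rpia* ranged from -1.38 to -1.12 in *Tsc2*Δ*podocyte* and from -1.78 to -0.80 in *Tsc2* flox/flox podocytes, a log2 fold change of -0.085 (95% interval -0.48 to 0.31, adjusted p = 0.785). The brightest *Rpe* probe was at -0.34, 1.09, 0.94 and 0.84 against 0.88, 0.86, 0.88 and 0.89, so that the low value of *Tsc2*Δ*podocyte* replicate 1 set its negative log2 fold change of -0.25 (adjusted p = 0.529). Without that array it was 0.079. The other *Rpe* probes, which did not show this low value, gave 0.26 each (adjusted p = 0.103 and 0.232).

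Outside the pathway, *Me1*, the cytosolic malic enzyme that turns malate into pyruvate, was at 3.96, 4.48, 4.36 and 4.40 in *Tsc2*Δ*podocyte* and 3.32, 3.30, 3.69 and 3.69 in *Tsc2* flox/flox podocytes. The groups did not overlap (log2 fold change 0.80, SE 0.13, adjusted p = 0.000999), and the other *Me1* probe gave 0.71 (adjusted p = 0.00126). *Idh1*, the cytosolic and peroxisomal isocitrate dehydrogenase, was at -1.66, -1.13, -1.68 and -1.44 against -2.62, -2.40, -2.18 and -2.12. Its log2 fold change was 0.85 (SE 0.15, adjusted p = 0.00214). A dimmer *Idh1* probe, above background on all 4 *Tsc2*Δ*podocyte* arrays but only 1 *Tsc2* flox/flox array, did not pass (0.73, adjusted p = 0.0926).

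**Figure D2:**
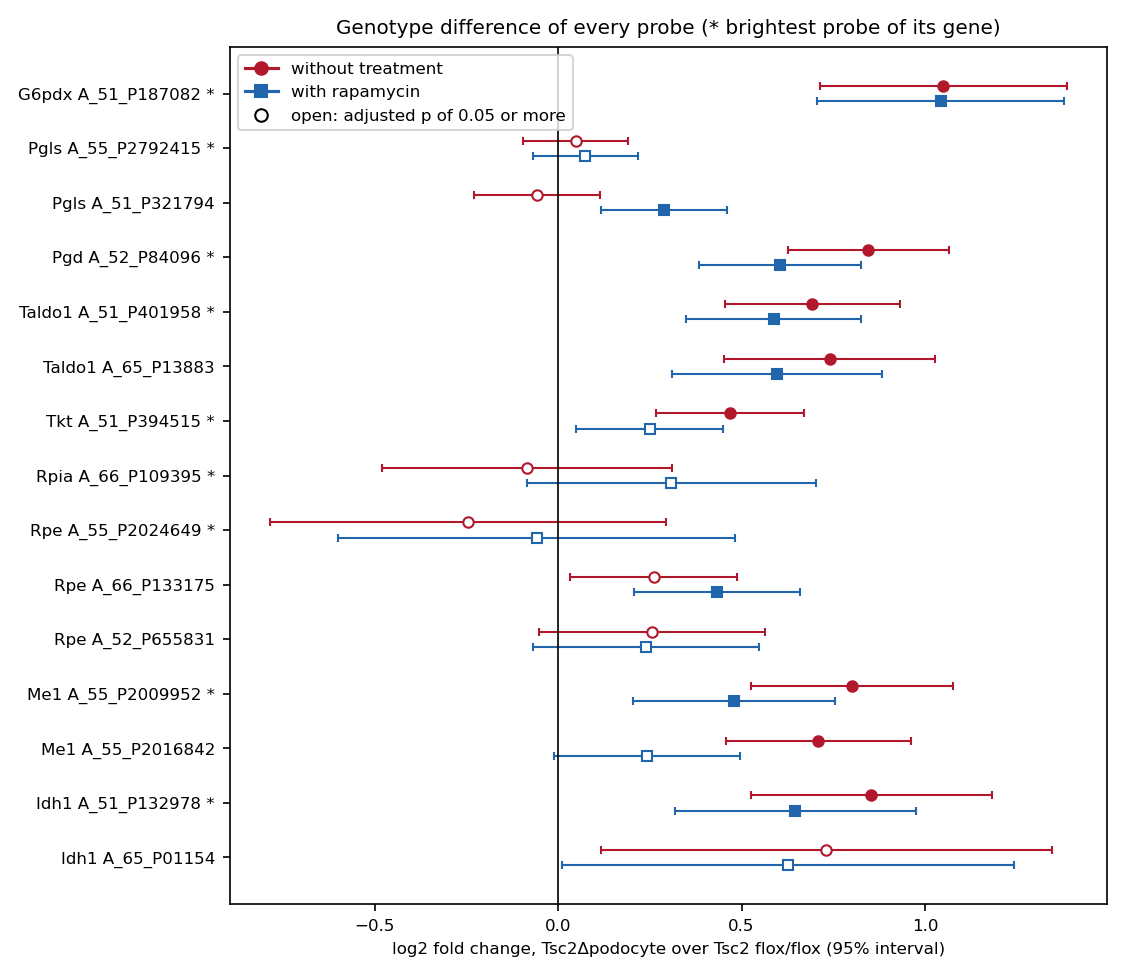
Log2 fold change of *Tsc2*Δ*podocyte* over *Tsc2* flox/flox (horizontal axis) for every probe of the 9 genes, named by gene and array probe, without treatment (circles) and with rapamycin (squares). Bars are 95% intervals from limma, and filled symbols have an adjusted p under 0.05. *G6pdx* is at 1.05 and 1.04, and the symbols of both *Taldo1* probes are filled for both treatments.

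The promoter windows of all measured members were searched, since 6 of them rose together. RefSeq (GRCm38.p6) gave 12 windows for the 9 genes, each of 300 bases from 250 before to 50 after an annotated start. The core of the antioxidant response element, TGACNNNGC on either strand, lay in 3 of them, 1 each of *G6pdx*, *Pgd* and *Me1*, and in 12.4% of 32851 windows of all genes. It lay in no window of *Taldo1*, *Tkt* or *Idh1*, which also rose. The hypoxia response core ACGTG lay in 1 window each of *G6pdx* and *Me1*, against 19.6% of all windows, and overlapped no other match. Neither the E-box CACGTG, which contains ACGTG, nor the sterol motif TCACNCCAC lay in a member window (7.15% and 1.24% of all windows). The 3 windows with the antioxidant core are shown 5′ to 3′ in the sense of the gene, with matches to the searched motifs in capitals.
G6pdx, chrX:74428831-74429130, minus strand: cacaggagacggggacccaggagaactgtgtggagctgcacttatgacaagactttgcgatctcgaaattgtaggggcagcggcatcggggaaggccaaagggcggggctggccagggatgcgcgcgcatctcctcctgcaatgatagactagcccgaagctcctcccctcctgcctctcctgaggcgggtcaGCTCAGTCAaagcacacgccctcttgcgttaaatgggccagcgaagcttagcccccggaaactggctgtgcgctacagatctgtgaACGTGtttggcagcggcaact
Pgd, chr4:149166033-149166332, minus strand: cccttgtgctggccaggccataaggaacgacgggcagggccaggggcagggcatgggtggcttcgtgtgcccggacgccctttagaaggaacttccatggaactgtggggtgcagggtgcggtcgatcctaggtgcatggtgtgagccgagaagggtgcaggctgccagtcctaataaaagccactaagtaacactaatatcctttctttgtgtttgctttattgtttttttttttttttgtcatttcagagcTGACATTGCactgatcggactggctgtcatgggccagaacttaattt
Me1, chr9:86695865-86696164, minus strand: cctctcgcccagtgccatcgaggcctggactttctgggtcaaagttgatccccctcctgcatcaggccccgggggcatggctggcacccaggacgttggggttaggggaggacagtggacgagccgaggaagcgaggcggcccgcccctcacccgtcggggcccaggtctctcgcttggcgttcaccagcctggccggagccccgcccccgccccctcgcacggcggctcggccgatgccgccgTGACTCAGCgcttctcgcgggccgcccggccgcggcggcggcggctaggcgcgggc
In *G6pdx* the antioxidant core was on the opposite strand and began 57 bases before the start, followed by an ACGTG 30 bases into the transcript. The *Pgd* match began at base 4 of the transcript from its other annotated start, which lies downstream of the first. The window of the first *Pgd* start held none of the searched motifs. The bases just before the downstream start, a run of t ending in cag, resemble the end of an intron. Whether this start has a promoter was not tested. The *Me1* match began 6 bases before the start. A match is a stretch of letters, and no binding was measured here.

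With rapamycin, 5 of the 9 genes were higher in *Tsc2*Δ*podocyte* than in *Tsc2* flox/flox podocytes and none was lower, with *G6pdx*, *Pgd*, *Taldo1*, *Me1* and *Idh1* passing and *Tkt* not. By the same rule 5.7% of all tested probes were higher and 4.59% lower. The median log2 fold change of the 9 genes was 0.48, against 0.0066 over all tested genes. Of the 5 genes 4 reached 1.5-fold, as 2.7% of all probes did in the higher direction, and *Me1* stayed under it. The groups were apart in the higher direction for 6 genes, these 5 and *Pgls*, and for 9.72% of all probes.

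*G6pdx* was at 4.64, 4.42, 4.84 and 4.55 in treated *Tsc2*Δ*podocyte* and at 3.82, 3.70, 3.28 and 3.49 in treated *Tsc2* flox/flox podocytes. The groups did not overlap, and the log2 fold change of 1.04 (SE 0.16, adjusted p = 0.00237) was nearly the value without treatment. *Pgd* was at 4.07, 4.09, 4.01 and 3.96 against 3.54, 3.51, 3.33 and 3.32, again apart, with a log2 fold change of 0.61 (SE 0.10, adjusted p = 0.00446). Among the genes that interconvert sugars, *Taldo1* was 0.59 higher on the log2 scale (adjusted p = 0.00699) without overlap, and *Tkt*, at 4.97, 5.18, 4.77 and 4.91 against 4.76, 4.86, 4.62 and 4.59, overlapped and did not pass (0.25, 95% interval 0.048 to 0.45, adjusted p = 0.107).

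*Idh1* was higher by 0.65 (adjusted p = 0.0178) without overlap. The dimmer *Idh1* probe was above background on 3 treated *Tsc2*Δ*podocyte* arrays and no treated *Tsc2* flox/flox array. Its measured log2 fold change was 0.63, with overlapping groups, and did not pass (adjusted p = 0.183). On each control array the lowest signal well above background then replaced the probe's own where it was higher. With that control mean the group means differed 1.44-fold. The treated *Tsc2*Δ*podocyte* arrays ranged from -5.32 to -3.55, so this value is not a lower limit. *Me1* was higher by 0.48 (SE 0.13, adjusted p = 0.0313) without overlap, but it no longer passed without any 1 of 6 of the 8 treated arrays (all but *Tsc2*Δ*podocyte* replicates 2 and 4), where its adjusted p was between 0.0503 and 0.0986. Its other probe gave 0.24 (adjusted p = 0.209). With the marker covariates the brightest *Me1* probe did not pass (0.47, adjusted p = 0.0555). With normexp background correction *Me1* (0.21, adjusted p = 0.307) and *Idh1* (0.27, adjusted p = 0.147) did not pass, and *Pgls* did (0.29, adjusted p = 0.0106).

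The dimmer probes of *Pgls* and *Rpe* differed here from the brightest ones. *Pgls* probe A_51_P321794 was at 2.92, 2.88, 2.83 and 2.84 in treated *Tsc2*Δ*podocyte* and at 2.67, 2.54, 2.51 and 2.60 in treated *Tsc2* flox/flox podocytes, a log2 fold change of 0.29 (adjusted p = 0.0356), while the brightest *Pgls* probe gave 0.074 (adjusted p = 0.528). *Rpe* probe A_66_P133175 gave 0.43 (adjusted p = 0.0202), the brightest -0.059 (adjusted p = 0.914) and the third 0.24 (adjusted p = 0.316). *Rpia* was at 0.31 (95% interval -0.086 to 0.70, adjusted p = 0.312). The genes with more than 1 probe whose passing calls differed between probes were thus *Pgls*, *Rpe*, *Me1* and *Idh1* with rapamycin, and *Idh1* alone without treatment.

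The genotype difference was then compared between treatments by the interaction of genotype and rapamycin. By their brightest probes none of the 9 genes passed in limma, at either the adjusted or the unadjusted 0.05, and of all probes 1 passed (0.00363%), with 7.36% under the unadjusted threshold. The interaction of *G6pdx* was -0.0074 on the log2 scale (95% interval -0.48 to 0.47), that of *Pgd* -0.24 (-0.55 to 0.071), that of *Tkt* -0.22 (-0.51 to 0.065) and that of *Me1* -0.32 (-0.71 to 0.069). Other probes of 2 genes had intervals that left out 0 without passing, *Me1* at -0.47 (-0.82 to -0.11, adjusted p = 0.639) and *Pgls* at 0.35 (0.10 to 0.59, adjusted p = 0.623). The intervals of the brightest probes hold 0 and, for *Pgd*, *Taldo1*, *Tkt*, *Me1* and *Idh1*, also a loss of most of the untreated difference. Hence 4 arrays a group do not settle whether rapamycin changed the genotype difference.

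Within *Tsc2*Δ*podocyte* podocytes, *Pgd* fell by 0.47 on the log2 scale after rapamycin (adjusted p = 0.0297) and *Tkt* fell by 0.36 (adjusted p = 0.0499), each without overlap, while 1.97% of all probes were lower and 1.41% higher. *Taldo1* and *Idh1* were also lower without overlap, which held for 7.09% of all probes. The other 7 genes did not pass, and *G6pdx* differed by -0.039 (95% interval -0.38 to 0.30). *Taldo1* (-0.37, adjusted p = 0.0778), *Me1* (-0.42, adjusted p = 0.0813) and *Idh1* (-0.56, adjusted p = 0.0609) had the same sign. The median was -0.36, against 0.011 over all tested genes. Both calls were lost with quantile normalization (*Pgd* -0.41, adjusted p = 0.0623; *Tkt* -0.28, adjusted p = 0.113), with the marker covariates (*Pgd* adjusted p = 0.107, *Tkt* adjusted p = 0.166) and with other alternatives, and leaving out any 1 of the 8 *Tsc2*Δ*podocyte* arrays left 0 to 1 of them. The mean of the 8 endothelial markers was between -1.42 and 0.86 in the untreated and between -2.84 and -1.78 in the treated *Tsc2*Δ*podocyte* samples, and its part in this difference was not tested beyond that covariate fit. Fewer cells of a type and less RNA per cell cannot be told apart in such samples.

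Within *Tsc2* flox/flox podocytes none of the 9 genes passed in limma, with 3 under the unadjusted 0.05 (16.2% of all probes), and the methods' t-test also gave 0. Of all probes 0.0834% were higher and 0.0725% lower. *Rpe* alone was lower without overlap, as were 6.35% of all probes. *G6pdx* differed by -0.032 (95% interval -0.37 to 0.31), *Pgd* by -0.23 (-0.45 to -0.0074) and *Taldo1* by -0.26 (-0.50 to -0.025). The comparisons of genotype and of rapamycin share their arrays, so their values are set side by side only.

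To describe the arms against each other, each gene's brightest probe was expressed as its difference from the untreated *Tsc2* flox/flox mean and averaged over the 3 oxidative and the 4 non-oxidative genes of an array. The oxidative mean was 0.65 ± 0.085 (SD, n = 4) and the non-oxidative mean 0.21 ± 0.19 in untreated *Tsc2*Δ*podocyte* podocytes. After rapamycin they were 0.47 ± 0.056 and 0.025 ± 0.098 in *Tsc2*Δ*podocyte* and -0.11 ± 0.12 and -0.25 ± 0.091 in *Tsc2* flox/flox podocytes. Each treated mean was below the untreated mean of its genotype, with overlapping arrays.

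The oxidative mean exceeded the non-oxidative mean by 0.44 ± 0.12 (range 0.32 to 0.60) in untreated *Tsc2*Δ*podocyte* podocytes, against 0 ± 0.081 (-0.084 to 0.093) in their controls. With rapamycin the differences were 0.44 ± 0.045 (0.39 to 0.49) and 0.14 ± 0.11 (0.076 to 0.31). Neither pair of groups overlapped. The genotype difference of this gap was 0.44 without and 0.30 with rapamycin, and 0.33 without treatment when the probes of a gene were averaged. The gap of 0.60 was that of untreated *Tsc2*Δ*podocyte* replicate 1, with a non-oxidative mean of -0.079. On that array the brightest *Rpe* probe was low, at -0.34, unlike the other *Rpe* probes. It is a description with no test, and it is an average over unlike genes, since *Pgls* lay with *Rpia* and *Rpe* near 0 while *Taldo1* and *Tkt* rose with *G6pdx* and *Pgd*.

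**Figure D3:**
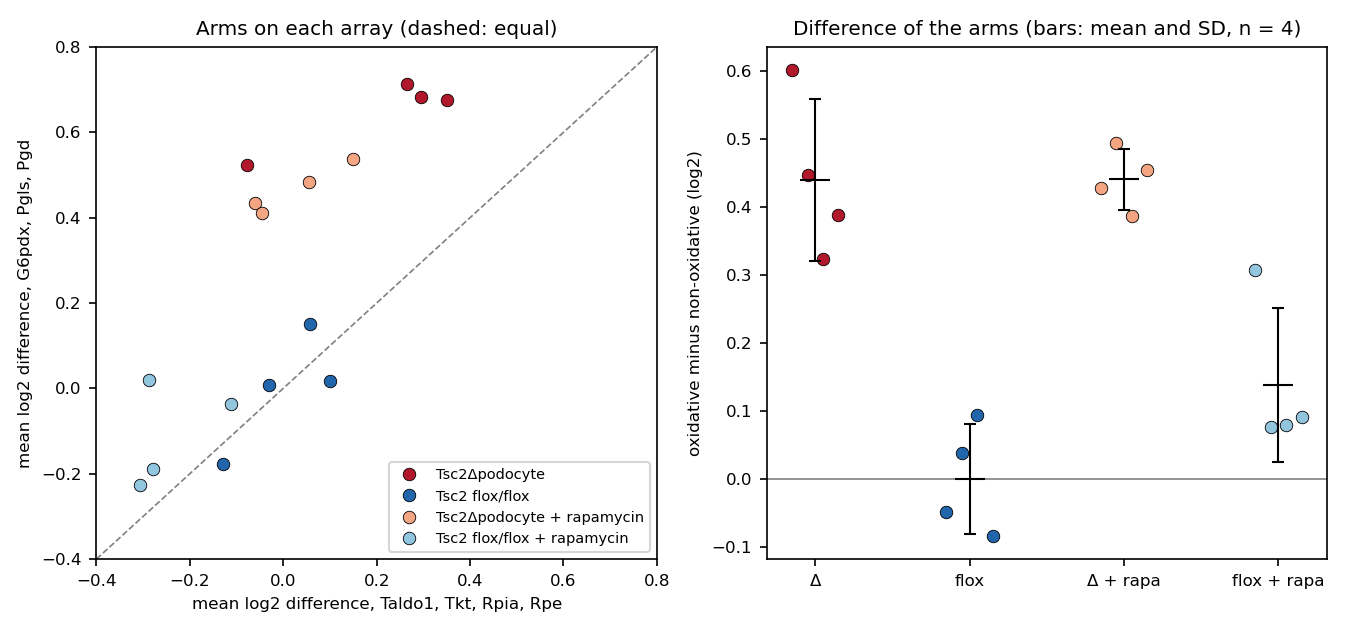
Left, mean log2 difference from the untreated *Tsc2* flox/flox mean of the oxidative genes (vertical axis) against that of the non-oxidative genes (horizontal axis) on each of the 16 arrays, with equality dashed. Right, the gap between the arms (log2) by group, with mean and SD of 4 arrays. All *Tsc2*Δ*podocyte* arrays have a gap of at least 0.32, and the control arrays lie between -0.084 and 0.31.

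Within an array, *G6pdx* relative to *Pgd* was 0.20 ± 0.24 (-0.048 to 0.53) in untreated and 0.63 ± 0.20 (0.38 to 0.88) in treated *Tsc2*Δ*podocyte* podocytes on the log2 scale. These groups overlapped, and the untreated *Tsc2* flox/flox mean was set at 0. Relative to *Me1* the values were 0.25 ± 0.080 (0.15 to 0.34) and 0.63 ± 0.12 (0.45 to 0.71), which did not overlap. Relative to *Idh1* they were 0.20 ± 0.13 (0.050 to 0.35) and 0.71 ± 0.20 (0.52 to 0.93), also apart. In treated *Tsc2* flox/flox podocytes the same ratios were 0.20 ± 0.14, 0.068 ± 0.17 and 0.32 ± 0.40. In untreated and treated *Tsc2*Δ*podocyte* podocytes *G6pdx* relative to *Taldo1* was 0.36 and 0.69, and relative to *Tkt* 0.58 and 0.91, with overlap. Relative to *Pgls* (1.00 and 1.00), *Rpia* (1.14 and 1.06) and *Rpe* (1.30 and 1.30) the means hardly moved. The ratios describe unequal change within the arrays and carry no test.

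Over the 16 arrays, which fall into 2 genotypes, *Pgd* correlated with *Taldo1* and *Me1* at r = 0.93 each, and *G6pdx* with *Me1* at r = 0.89. Much of such a value is the genotype difference itself. For deviations from the group means, *G6pdx* and *Me1* correlated at 0.78, *G6pdx* and *Pgd* at 0.52 and *Pgd* and *Taldo1* at 0.34. Other pairs of the genes that rose ranged from -0.55 (*Taldo1* and *Idh1*) to 0.48 (*Pgd* and *Me1*). *Tkt* and *Idh1* (-0.24), *Pgd* and *Idh1* (-0.13) and *Taldo1* and *Tkt* (-0.079) were also below 0. *G6pdx* and *Rpia*, which did not pass, correlated at 0.60. The 5 genes outside the list whose brightest probe followed *G6pdx* most closely among 14085 were *Ugp2* (r = 0.968), the UDP-glucose pyrophosphorylase of glycogen synthesis, the haem transporter *Slc48a1* (0.965), *Cmtm7* (0.963), *Stac2* (0.955) and the major vault protein *Mvp* (0.954). Their deviations from group means correlated with those of *G6pdx* at 0.84, 0.79, 0.79, 0.62 and 0.78. Values of an array share its RNA and its scaling, so these are descriptions.

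Other genes of the pathway and of NADPH were counted from 3 lists. Among 11 other genes of pentose and ribose phosphates, of which *Tktl1* and *Tktl2* were not tested, only *G6pd2* passed without treatment (0.98, adjusted p = 0.00921). That is 1 of 9 tested genes, near the 9.59% of all probes that were higher. None passed with rapamycin in limma, with 3 then under the unadjusted 0.05, as were 26.2% of all probes. *G6pd2* was at -1.80, -1.23, -1.33 and -1.26 against -3.02, -2.49, -1.79 and -2.27, which overlapped narrowly, and its likeness to *G6pdx* makes its own expression uncertain. *H6pd*, the hexose-6-phosphate dehydrogenase of the endoplasmic reticulum, was at 0.18 (adjusted p = 0.580). *Tigar*, a phosphatase that directs glucose 6-phosphate into the pathway, was at 0.17 (adjusted p = 0.137). The median of the list was 0.18.

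Of 12 other NADPH and NADP genes 5 were higher and 2 lower without treatment, as were 9.59% and 8.42% of all tested probes. *Aldh1l2*, the mitochondrial formyltetrahydrofolate dehydrogenase, which oxidises the formyl group to carbon dioxide and makes NADPH, was at 1.11, 2.13, 1.28 and 1.09 in *Tsc2*Δ*podocyte* and 0.24, -0.054, 0.17 and -0.12 in *Tsc2* flox/flox podocytes, a log2 fold change of 1.34 (adjusted p = 0.000989). The mitochondrial malic enzyme *Me3* rose by 1.01 (adjusted p = 0.0149) and the mitochondrial formate-tetrahydrofolate ligase *Mthfd1l* by 0.79 (adjusted p = 0.00366). *Idh2*, the mitochondrial counterpart of *Idh1*, fell: it was at 3.53, 3.73, 3.68 and 3.44 against 3.86, 4.50, 4.07 and 4.18, which came to -0.56 on the log2 scale (adjusted p = 0.0225), opposite in sign to *Idh1*. *Mthfd2l*, a mitochondrial folate dehydrogenase, also fell (-0.43, adjusted p = 0.0198). The cytosolic *Aldh1l1* (1.59, adjusted p = 0.0352) and the mitochondrial NAD kinase *Nadk2* (0.29, adjusted p = 0.0232), outside the 5 smallest p of the list, also passed as higher. The median over the list was 0.20.

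With rapamycin 3 of the 12 were higher and none lower, against 5.7% and 4.59% of all tested probes. *Me3* was at 1.32 (adjusted p = 0.00764) and *Mthfd1l* at 0.64 (adjusted p = 0.0205), with *Nadk2* at 0.33 (adjusted p = 0.0215), whereas *Idh2* was at -0.10 (adjusted p = 0.733), *Mthfd2l* at -0.34 (adjusted p = 0.0770) and *Aldh1l2* at 0.48 (adjusted p = 0.176). *Aldh1l2* fell by 0.97 in *Tsc2*Δ*podocyte* podocytes after rapamycin (adjusted p = 0.0303), while its other probe overlapped and did not pass (-0.62, adjusted p = 0.178). No interaction passed, and that of *Aldh1l2* was -0.86 (adjusted p = 0.633).

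Among 14 enzymes that use NADPH, 7 were higher and none was lower without treatment, with a median of 0.44. Of all tested probes 9.59% were higher and 8.42% lower. The quinone reductase *Nqo1* was at 1.46, 1.17, 3.15 and 2.66 against -0.19, -1.86, 0.26 and -0.62, 6.56-fold higher (adjusted p = 0.00193), with wide spread in both groups. The biliverdin reductase *Blvrb* rose 3.35-fold (adjusted p = 9.93e-05), the thioredoxin reductase *Txnrd1* 1.64-fold (adjusted p = 0.000444), the sterol reductase *Dhcr7* 1.80-fold (adjusted p = 0.00157) and the NADPH oxidase *Nox4* 2.17-fold (adjusted p = 0.00335). The glutathione reductase *Gsr* was at 0.44 (adjusted p = 0.275). With rapamycin 6 were higher, against 5.7% of all tested probes, with *Blvrb*, *Txnrd1*, *Dhcr7* and *Nox4* among the 6. *Nqo1* was then at 1.35 (adjusted p = 0.0889).

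**Figure D4:**
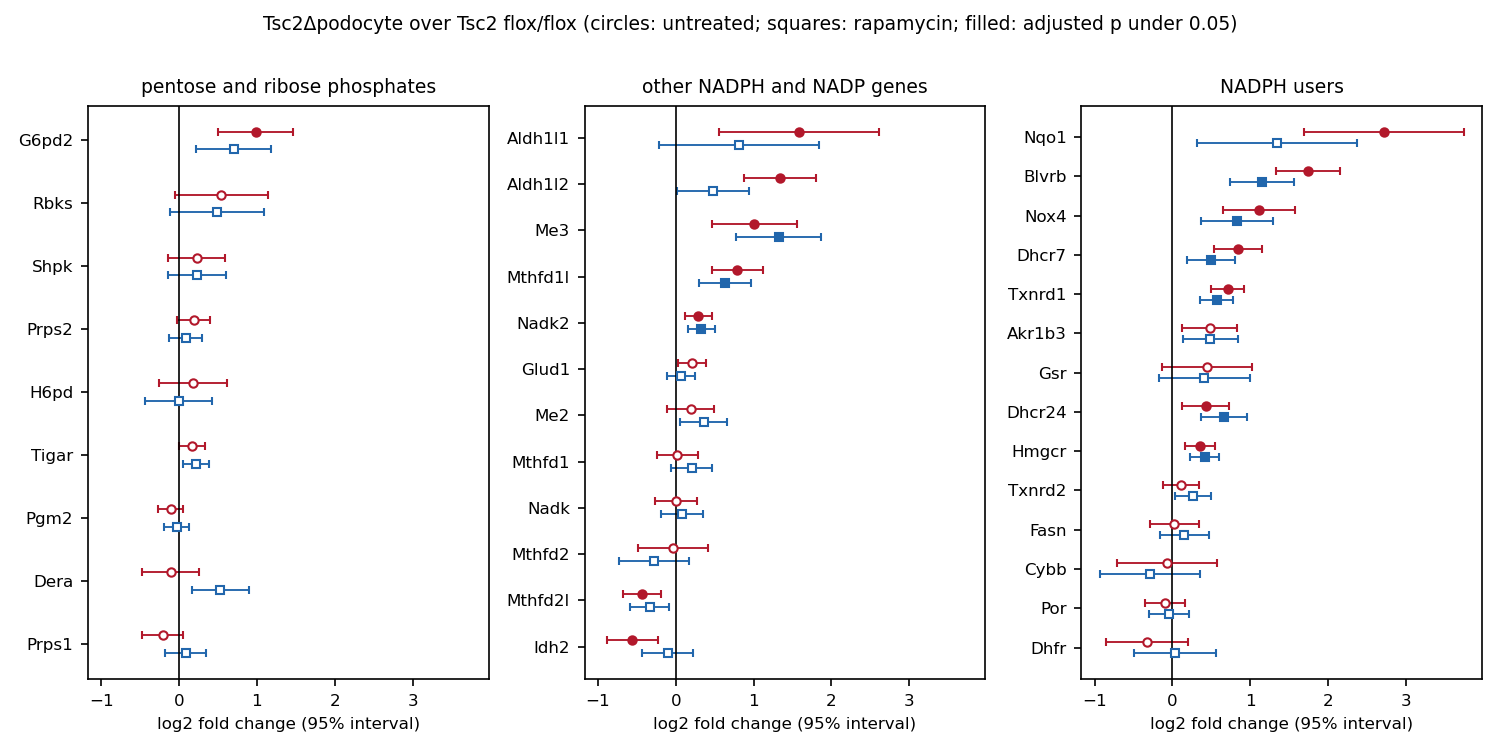
Log2 fold change of *Tsc2*Δ*podocyte* over *Tsc2* flox/flox (horizontal axis, with 95% intervals) for the tested genes of 3 related lists, untreated (circles) and with rapamycin (squares), filled where the adjusted p is under 0.05. In the list of pentose and ribose phosphates only *G6pd2* is filled, and *Idh2* and *Mthfd2l* are the filled symbols below 0.

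Markers of other cell types moved with genotype beside these genes. Of all tested probes 9.59% were higher and 8.42% lower without treatment, and 5.7% and 4.59% with rapamycin. None of the 8 endothelial markers passed between genotypes, with 1 under the unadjusted 0.05 in limma for each treatment, and of 10 podocyte markers *Plce1* passed as higher without treatment, and *Plce1* and *Podxl* with rapamycin. Of the 3 tested tubule markers *Lrp2* was lower without overlap, at -1.57 on the log2 scale without treatment (adjusted p = 0.00489) and -1.84 with rapamycin (adjusted p = 0.00516). The mean of the 6 mesangial and smooth muscle markers was between 2.20 and 2.53 in untreated *Tsc2*Δ*podocyte* and between 1.25 and 1.81 in untreated *Tsc2* flox/flox samples, and *Des* and *Itga8* passed as higher. That of the 6 parietal epithelial markers was between 2.51 and 3.03 against 3.42 to 3.97, with *Pax8* and *Cdh6* lower. Of 7 macrophage and leukocyte markers 3 were higher (*Cd14*, *Cd68* and *Cd52*), with means between -0.56 and 0.32 against -1.55 to -0.34. With rapamycin none of the 7 passed in limma, at either the adjusted or the unadjusted 0.05. With rapamycin *Des* was higher and *Pax8* and *Cdh6* were lower, each past the test. The part of mesangial, parietal and tubule cells in the differences above was not tested.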

How the data were processed

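RNA of primary podocytes, 4 samples in each of 4 groups, was hybridised by the authors to one-colour Agilent SurePrint G3 mouse arrays. The scanner files they deposited hold background-subtracted spot intensity on a linear scale, from Agilent Feature Extraction 10.7.3.1 per the submitters' processing notes. The deposited series table holds log2 values the authors made from them, by the values themselves relative to each array's 75th percentile and centred per probe.

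Each array's log2 75th percentile was subtracted here from its log2 intensity. The 27579 probes that passed the background flag throughout 1 or more groups were fitted with 4 group means over 16 arrays by limma (version 3.58.1, under R 4.3.3), with Benjamini-Hochberg adjustment in each comparison. The code was tested on simulated data. Where the text gives no other test, the adjusted p is from limma. Probes were named through RefSeq identifiers. A gene is represented by the probe with the highest mean. Named are all members, genes of 3 related lists with the smallest p, and the genes most like *G6pdx*.

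The members and lists were chosen with earlier results of these data known. The marker covariates were chosen after seeing the data. Alternatives were quantile normalization, normexp (offset 50, on median signals), other filters, the deposited values, 8 arrays only, the methods' t-test, a trended and robust prior, a replicate block, other probe and fold rules and each array left out. The number of arrays limits the precision.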

Additional observations from a re-analysis of the deposited data

How the results depend on the processing

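Without treatment 6 members passed under all planned settings but the 1.5-fold rule (5), and 6 without any 1 array. With rapamycin 5 passed, but 4 by the 1.5-fold rule and 3 without a filter on dim probes and by the methods' t-test. Without the filter *Me1* (adjusted p = 0.0949) and *Idh1* (adjusted p = 0.0566) were lost in limma. The t-test lost *Taldo1* (adjusted p = 0.0576) and *Idh1* (adjusted p = 0.0653). Leaving out single arrays gave 4 to 5. With normexp *Me1* and *Idh1* were lost and *Pgls* was gained, and with the marker covariates *Me1* was lost. The fall after rapamycin in *Tsc2*Δ*podocyte* podocytes (2 members) was not stable: 0 passed with quantile normalization, no filter, a fit of those 8 arrays alone, the methods' t-test, the 1.5-fold rule and the marker covariates, 1 with the deposited values and with averaged probes, 4 with normexp, and 0 to 1 without single arrays. The causes were not tested. Quantile normalization also moved the share of higher probes among all that passed there from 41.8% to 52.3%. The interaction and the rapamycin comparison in *Tsc2* flox/flox podocytes stayed at 0 members in each setting. Over all probes the interaction count went from 1 to 46 with normexp and to 0 with quantile normalization or the deposited values. The arm gap was 0.44 (0.39 to 0.48 without single arrays) and moved to 0.33 with averaged probes, and with rapamycin it was 0.30 (0.28 to 0.36).

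Whether samples with the same replicate number belong together is not stated. Between the genotypes, same-numbered deviations correlated at -0.01, -0.23, -0.30 and -0.05 without treatment and at -0.02, 0.46, 0.17 and 0.29 with rapamycin. So few pairs cannot settle whether the samples were paired. With the replicate number as a block 6, 5, 0, 2 and 0 members passed, which changed no call.

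Signs turned only for values that did not pass. With quantile normalization these were *Pgls* untreated (-0.065), with rapamycin (-0.0098) and for rapamycin in *Tsc2*Δ*podocyte* (0.10) and *Tsc2* flox/flox podocytes (0.041), and *G6pdx* for the interaction (0.040) and rapamycin in *Tsc2*Δ*podocyte* podocytes (0.032). With normexp they were *Pgls* untreated (-0.055) and for rapamycin in *Tsc2*Δ*podocyte* podocytes (0.11), and *Rpe* with rapamycin (0.046). With the covariates they were the *Pgls* interaction (-0.00025), *Rpia* (-0.11) and *Rpe* (0.13) for rapamycin in *Tsc2*Δ*podocyte* and *Rpe* in *Tsc2* flox/flox podocytes (0.10). Without single arrays the ranges that crossed 0 were *Rpia* (-0.29 to 0.039) and *Rpe* (-0.40 to 0.079) untreated, *Rpe* with rapamycin (-0.18 to 0.097), the interactions of *G6pdx* (-0.11 to 0.12), *Pgls* (-0.0042 to 0.065) and *Rpe* (-0.14 to 0.34), and for rapamycin *G6pdx* (-0.12 to 0.028), *Pgls* (-0.068 to 0.0011), *Rpia* (-0.022 to 0.084) and *Rpe* (-0.36 to 0.12) in *Tsc2*Δ*podocyte* and *G6pdx* (-0.16 to 0.066) in *Tsc2* flox/flox podocytes.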
